A study of Homo sapiens with 2 samples.

Results

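The SLC25 mitochondrial carrier family was examined in MCF-10A cells, an established, non-tumorigenic line of human mammary epithelial cells. Members were the genes whose annotated symbol was SLC25A with a number, UCP1 to UCP3, MTCH1 or MTCH2. Of 14812 genes with a named feature, 4 met this rule: SLC25A15, SLC25A2, MTCH1 and MTCH2, each measured by 1 feature (transcript cluster). The RefSeq gene table holds 53 genes that meet the rule, and the other 49 were not analysed here. Total RNA from 1 culture that stably expressed EGFP-ARHGAP4, a fusion of EGFP with the protein ARHGAP4, was set against total RNA from 1 culture that stably expressed EGFP from the vector alone. Both groups are MCF-10A cells that carry EGFP. Each was hybridised to 1 Affymetrix whole-transcript array, so differences are given without p-values, and how far 2 cultures of the same kind would differ is not known. The promoter of the constructs, and whether each line was a single clone or a pool, were not stated in the labels.

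SLC25 proteins are carriers of the inner mitochondrial membrane. They exchange nucleotides, phosphate, amino acids, carboxylates and cofactors between the cytosol and the mitochondrial matrix, and so connect the respiratory chain and the enzymes of the matrix with the rest of the cell. SLC25A15 exchanges ornithine for citrulline as part of the urea cycle, and its loss in humans causes a syndrome of high ornithine and ammonia. SLC25A2 is a second ornithine carrier with a wider range of basic amino acids. MTCH1 and MTCH2 are divergent relatives in the outer membrane. MTCH2 inserts helical membrane proteins there and binds the cell death protein BID, and MTCH1 is its close paralog. The ADP/ATP, phosphate, uncoupling, carboxylate, aspartate and glutamate, carnitine, cofactor, and iron and glutathione carriers had no named feature. These are 8 of the 10 role groups into which the family was divided, so the values below cover the ornithine carriers and the outer membrane members alone.

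The promoter sequences of SLC25A15 and MTCH2 are shown because these are the lowest and the middle of the 3 members above the level filter described below, and each has a single start in the RefSeq promoter table (GRCh38.p14). Each runs from 250 bases before the start to 50 bases after it. Capitals mark the GC box GGGCGG and the E-box CACGTG, searched on both strands.
SLC25A15, chr13:40789361-40789660, plus strand: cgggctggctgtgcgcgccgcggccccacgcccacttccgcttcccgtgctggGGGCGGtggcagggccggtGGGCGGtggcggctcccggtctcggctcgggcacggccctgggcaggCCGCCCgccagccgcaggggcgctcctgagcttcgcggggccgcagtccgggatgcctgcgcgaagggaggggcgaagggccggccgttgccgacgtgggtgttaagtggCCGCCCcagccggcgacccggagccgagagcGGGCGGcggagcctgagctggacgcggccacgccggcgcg
MTCH2, chr11:47642510-47642809, minus strand: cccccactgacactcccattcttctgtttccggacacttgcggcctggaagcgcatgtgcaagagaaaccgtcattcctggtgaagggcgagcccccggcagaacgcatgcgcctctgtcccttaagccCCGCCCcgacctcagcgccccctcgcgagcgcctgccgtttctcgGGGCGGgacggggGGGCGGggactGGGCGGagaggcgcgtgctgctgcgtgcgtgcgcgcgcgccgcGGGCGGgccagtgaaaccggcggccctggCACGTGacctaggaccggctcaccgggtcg
The SLC25A15 promoter held 5 GC boxes and no E-box, and the MTCH2 promoter held 5 GC boxes and 1 E-box, none overlapping. Over 35116 promoters of the same length, 45.0% held a GC box and 7.26% an E-box. The table gives 3 starts for MTCH1. One of them, on the minus strand of chromosome 6, held 1 GC box, 1 E-box and 1 match to the ETS motif CCGGAAGT, which 4.14% of promoters held, and the other 2 held only GC boxes. The TATA box TATAAA, which 11.5% of promoters held, was not found in these windows for any of the 3 genes. SLC25A15 had 45 CpG dinucleotides and MTCH2 had 37, against a median of 14 over the promoters in the table. SLC25A2 had no entry.

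Values are the authors' normalized log2 expression values, and each difference is the value in the EGFP-ARHGAP4 array minus that in the EGFP vector array. The level filter kept the 7685 genes that reached 4.02, the median over all genes and both arrays, in at least 1 array. Their median difference was -0.10, with quartiles of -0.29 and 0.12, so the bulk of the genes lay slightly below 0. ARHGAP4, the introduced gene, stood at 6.68 in the EGFP-ARHGAP4 array and 4.49 in the EGFP vector array, a difference of 2.19 in the direction of the labels. Of 6 measured mammary epithelial markers 5 passed the filter: KRT5 differed by 0.02, KRT18 by 0.08, KRT8 by 0.36 and EPCAM by 1.20, while KRT14, a basal keratin, differed by -2.25. The 3 measured fibroblast markers, DCN, LUM and THY1, lay between 1.73 and 3.92 in the EGFP-ARHGAP4 array and between 1.75 and 4.001 in the EGFP vector array, all under the filter, as were the 3 adipocyte markers. Of 3 measured blood cell markers LAPTM5 differed by 2.05, CD68 by 0.48 and CD14 by -0.35, and of 3 endothelial markers KDR differed by 2.27 while VWF and TIE1 were under the filter. The part of other cell types in the differences below was not tested.

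All 4 members were lower in the EGFP-ARHGAP4 array as deposited, by small amounts, and the directions of MTCH1 and MTCH2 turned under other scalings. The median difference of the 4 was -0.22, and that of the 3 past the level filter was -0.12, against -0.03 over all named genes and -0.10 over the genes past the filter. None of the 3 was higher by 0.5 on the log2 scale (1.41-fold), where 5.15% of genes past the filter were. None was lower by 0.5, where 9.81% were, and none differed by 1 (2-fold), where 1.8% did. All 3 were below 0, as were 61.4% of the genes past the filter. With 3 genes, counts this close to the shares over all genes are no result about the family.

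**Figure D1:**
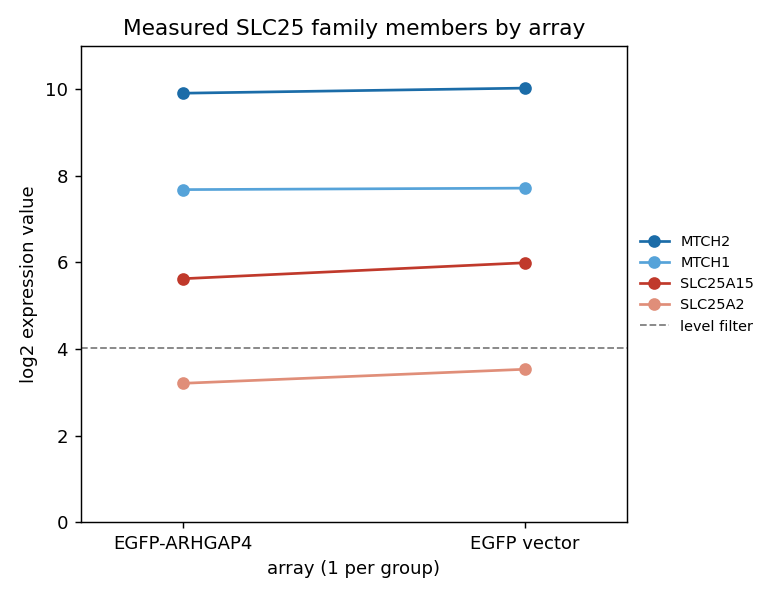
Log2 expression values of the 4 measured members in the EGFP-ARHGAP4 array (left) and the EGFP vector array (right), 1 array per group. Points are single measurements and lines join the same gene; the dashed line is the level filter at 4.02. The lines of SLC25A15 and SLC25A2 slope by 0.37 and 0.32, and those of MTCH2 and MTCH1 by 0.12 and 0.03. Heights of different genes are signals of different features and cannot be compared.

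The largest difference among the members was that of SLC25A15, the ornithine/citrulline carrier, on chromosome 13. Its log2 value was 5.62 in the EGFP-ARHGAP4 array and 5.99 in the EGFP vector array. The difference of -0.37, or 1.29-fold lower, left 18.1% of the genes past the filter below it. When these genes were cut into 4 equal bins of mean level, SLC25A15 fell in the bin from 4.84 to 5.83, whose own median difference was -0.09 and whose quartiles were -0.30 and 0.12. It was therefore below the lower quartile of genes of similar signal, and inside the range from -0.75 to 0.63 that held 95% of them. The gene table lists 5 pseudogenes named after SLC25A15, and SLC25A2 is a close paralog, so the value is uncertain to the extent that its feature takes up their RNA.

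SLC25A2, the second ornithine carrier, on chromosome 5, had log2 values of 3.21 in the EGFP-ARHGAP4 array and 3.53 in the EGFP vector array. Both lie under the level filter, where signal approaches background, so the difference of -0.32 is given as a value and is not read further. Among the enzymes that handle the same substrate, OAT, ornithine aminotransferase of the matrix, stood at 6.94 in the EGFP-ARHGAP4 array and 6.91 in the EGFP vector array. OTC, the ornithine transcarbamylase of the urea cycle, known chiefly from liver, stood at 1.72 and 1.76 in the EGFP-ARHGAP4 and EGFP vector arrays, far under the filter. OAT, which lies on chromosome 10, differed by 0.03. The OTC difference of -0.04 is given as a value and is not read further, because its signal lies so far under the filter.

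MTCH2, the outer membrane insertase, on chromosome 11, had log2 values of 9.91 in the EGFP-ARHGAP4 array and 10.03 in the EGFP vector array, a difference of -0.12. This is within 0.02 of the median of the genes past the filter, and 47.2% of them lay below it. MTCH1, on chromosome 6, had log2 values of 7.68 in the EGFP-ARHGAP4 array and 7.72 in the EGFP vector array. Its difference was -0.03, with 57.9% of the genes past the filter below it. The pair thus lay near the centre of all genes, and in the bin of highest mean level, whose median difference was -0.14. The directions of both depend on scaling: MTCH1 was at 0.07 after quantile normalization, 0.07 after centring and 0.09 after removal of the level trend, and MTCH2 was at 0.01 after the last of these. The gene table lists 2 pseudogenes of MTCH1 and 4 of MTCH2, none with a named feature. Within a gene, the difference between the 2 arrays varied from feature to feature. Its pooled SD within genes was 0.21 over the 336 genes past the filter with several features. The MTCH1 and MTCH2 differences are smaller than that and the SLC25A15 difference is larger; the SD describes features on the same 2 arrays and not cultures.

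**Figure D2:**
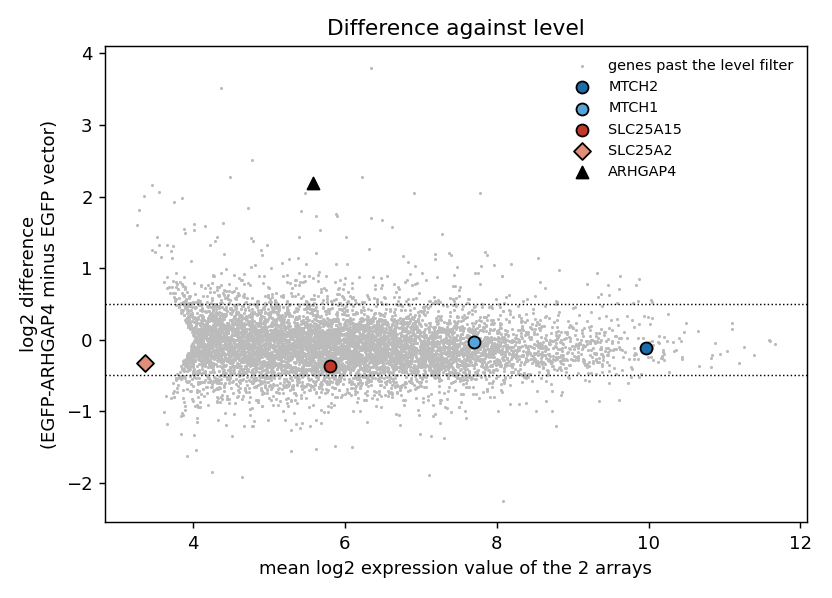
Log2 difference, EGFP-ARHGAP4 minus EGFP vector (vertical), against the mean log2 value of the 2 arrays (horizontal). Grey points are the 7685 genes past the level filter, coloured circles are members past it, the diamond is SLC25A2 below it and the triangle is ARHGAP4; dotted lines mark 0.5 either way. All 4 members lie between the dotted lines, SLC25A15 at -0.37 the lowest, while ARHGAP4 stands at 2.19.

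The members lie on 4 different chromosomes and none on chromosome 10, where the 307 genes past the filter had a median difference of 0.18. Each was set beside the 10 genes past the filter on either side of it in the gene order of the RefSeq table. Around SLC25A15 these 20 genes had a median of -0.32, 16 were below 0, and 9 were lower than SLC25A15 itself. The 135 genes of chromosome 13 past the filter had a median of -0.22. SLC25A15 thus lay 0.05 from the centre of its neighbours, among which FOXO1, a forkhead transcription factor, stood out at 6.24 in the EGFP-ARHGAP4 array and 5.61 in the EGFP vector array. MRPS31, a mitochondrial ribosomal protein gene next to SLC25A15, differed by -0.22, and ELF1, an ETS transcription factor on the other side, by -0.15. Around SLC25A2 the 20 neighbours had a median of -0.07, and 3 of them were lower than it. SLC25A2 itself lies under the filter that its neighbours passed, so its place among them is not read further. The neighbours of MTCH1 and MTCH2 had medians of -0.13 and -0.16, with both members slightly above. The part of position in these differences was not tested.

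**Figure D3:**
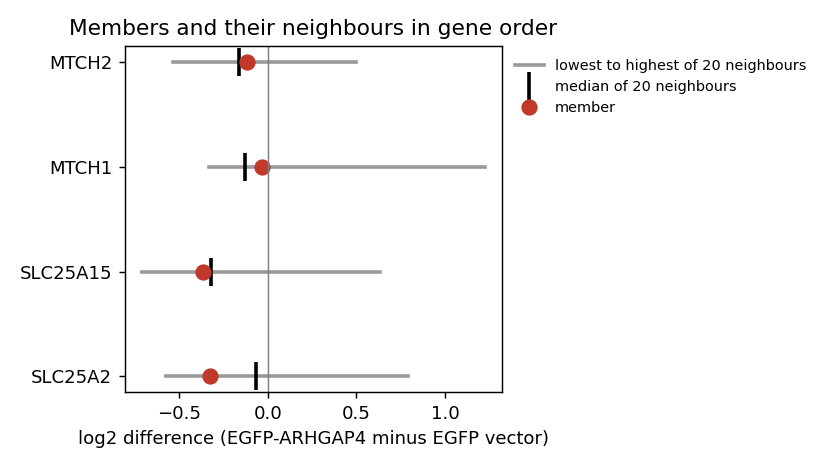
Log2 difference, EGFP-ARHGAP4 minus EGFP vector, of each member (red point) and of the 20 genes past the level filter nearest to it in gene order, 10 on each side (grey bar from lowest to highest, black tick at the median). SLC25A15, at -0.37, lies beside the median of its neighbours at -0.32. SLC25A2, itself below the level filter, lies at -0.32 where its neighbours centre on -0.07.

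Carriers reach the inner membrane through the TOM complex of the outer membrane, the small TIM chaperones of the intermembrane space and the TIM22 insertase. Of 16 listed genes of this route 15 were measured, all past the filter, with a median of -0.07. None was higher or lower by 0.5, where 5.15% and 9.81% of all genes past the filter were. TOMM70, the TOM receptor that recognises carrier precursors, stood at 7.68 in the EGFP-ARHGAP4 array and 7.98 in the EGFP vector array, a difference of -0.30 and the lowest of the list. TOMM5, a small TOM subunit, differed by -0.24 and AGK, a subunit of the TIM22 complex, by -0.19, whereas TOMM7 was at 0.28. TIMM22, the insertase channel itself, differed by -0.14. As deposited 13 of the 15 genes were below 0, as were 61.4% of all genes past the filter. Under quantile normalization, centring and removal of the level trend 6 of the 15 were below 0. Of all genes past the filter, 4008 of 7686, 3842 of 7685 and 3938 of 7685 were below 0, in that order. The median of the 15 turned to between 0.01 and 0.03, and TOMM7 lay between 0.37 and 0.38.

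Among the other solute transporters of mitochondria, 16 of 24 listed genes were measured, all past the filter, with a median of -0.13. By 0.5, 2 of the 16 were higher and 2 lower, where 5.15% and 9.81% of all genes past the filter were. MCUB, the dominant negative partner of the calcium uniporter pore, was the lowest, at 6.59 in the EGFP-ARHGAP4 array and 7.46 in the EGFP vector array, 1.83-fold lower. The uniporter pore gene MCU differed by -0.13. TMEM65, an inner membrane protein linked to sodium and calcium exchange, differed by -0.59. The sideroflexin genes SFXN3 and SFXN2, of a family that includes the mitochondrial serine transporter SFXN1, were 0.60 and 0.59 higher, at 6.41 and 6.82 in the EGFP-ARHGAP4 array against 5.81 and 6.23 in the EGFP vector array. Both lie on chromosome 10, as do SFXN4 at 0.43, VDAC2 and MCU. Those 5 had a median of 0.43, and the other 11 a median of -0.19 with none higher by 0.5. After quantile normalization, centring or removal of the level trend TMEM65 lay between -0.47 and -0.49 and SFXN4 passed 0.5. This gives 3 higher and 1 lower of the 16 under each of them. Of all genes past the filter (7686, 7685 and 7685), 554, 608 and 557 were higher by 0.5 under these scalings, in that order. Lower by 0.5 were 514, 447 and 504.

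Enzymes that work with the carriers, such as those of the carnitine shuttle, had a median of -0.08 over 13 measured genes of 23 listed. This median turned to 0.02 after centring. GOT1, GOT2, MDH1 and MDH2, the listed enzymes of the malate-aspartate shuttle, were not among the measured genes. Over the 11 past the filter the median was also -0.08. It turned to 0.0035 after quantile normalization, 0.0229 after centring and 0.0118 after removal of the level trend. Of the 11 past the filter, none was higher by 0.5 and 1 was lower, beside the same 5.15% and 9.81%: NADK2, the mitochondrial NAD kinase, at 5.87 in the EGFP-ARHGAP4 array and 6.39 in the EGFP vector array, a difference of -0.53. It lay at -0.42 to -0.43 under the 3 scalings named above, which leaves none lower. The counts over all genes past the filter under these scalings are those given for the solute transporters. PPIF, cyclophilin D of the permeability pore, which lies on chromosome 10, was at 0.33, GPD2, the mitochondrial glycerol phosphate dehydrogenase, at -0.315 and CPT1C, a carnitine palmitoyltransferase of the endoplasmic reticulum known mainly from neurons, at 0.23. Of 14 listed regulators of mitochondrial gene expression 6 were measured, with a median of -0.13. Among the 5 past the filter none was higher or lower by 0.5, beside the same 5.15% and 9.81%. Of these, PPARD, a nuclear receptor of fatty acid use, was at 0.29, NRF1 at -0.29, YY1 at -0.21 and POLRMT, the mitochondrial RNA polymerase, at -0.19. Over members past the filter, the medians of the 4 lists ran from -0.19 to -0.07, on either side of the -0.10 of all genes past the filter.

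**Figure D4:**
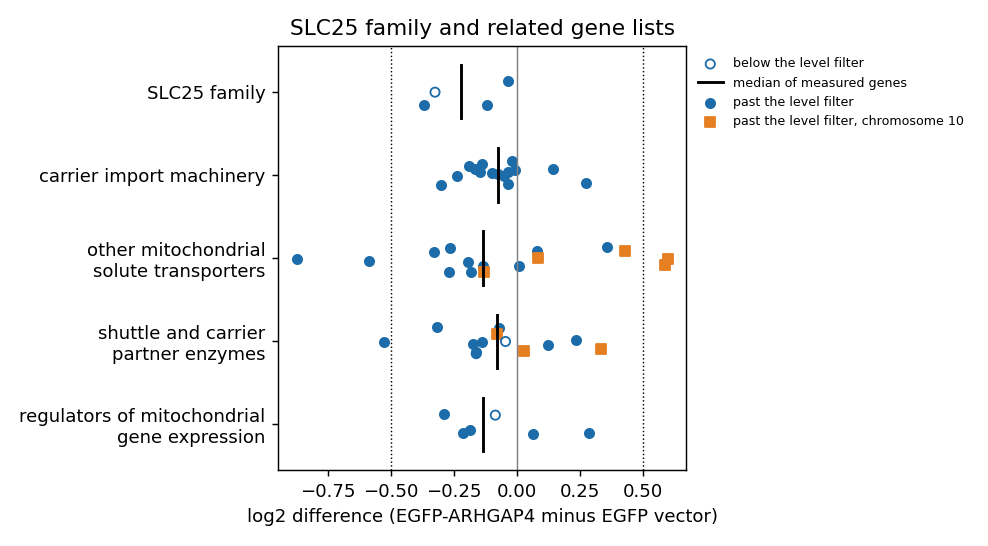
Log2 difference, EGFP-ARHGAP4 minus EGFP vector (horizontal), of each measured gene in the SLC25 family and in 4 related lists. Filled symbols are genes past the level filter (squares: chromosome 10), open circles are genes below it, black bars are medians over measured genes and dotted lines mark 0.5 either way; vertical scatter within a row is only for display. The 4 members and the 15 import genes lie inside the dotted lines, while MCUB at -0.87 lies farthest out.

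Features annotated to non-coding loci named after carriers did not meet the rule. The antisense RNA genes SLC25A21-AS1, SLC25A25-AS1, SLC25A48-AS1 and SLC25A5-AS1 and the pseudogene SLC25A51P4 had log2 values from 2.05 to 3.42 in the EGFP-ARHGAP4 array and from 2.05 to 3.54 in the EGFP vector array. All 5 lie under the level filter. SLC25A51P4 had the same value, 2.05, in both arrays.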

How the data were processed

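Per the labels' protocols, RNA from a PureLink kit was amplified by the GeneChip whole-transcript method and labelled with biotin, and each sample went onto 1 Affymetrix array. The authors deposited 1 normalized log2 value per feature and array for 44629 features; the sources used here do not state the scanning, summarisation or normalization. That the values are log2 was read from their range, with a maximum of 12.8. Both arrays have the same median, 2.88, so differences are relative to the bulk of the features. The number of arrays limits the precision.

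Names came from the platform annotation supplied with the table, which names 15835 features, and chromosomes, gene order and family size from the RefSeq gene table. Features of a gene were averaged, giving 14812 genes. Samples were grouped by genotype label; no test was possible. Alternatives were quantile normalization, centring, removal of a loess curve (span 0.3), the brightest feature, other filters and thresholds, and leaving out chromosome 10. The members, lists and thresholds were chosen with earlier results of these data known. The naming rule took ARHGAP4, every member, and up to 4 genes past the filter with the largest absolute difference per list; other genes named were chosen after their values were seen. Calculations used matplotlib 3.10.9, statsmodels 0.14.6, numpy 2.4.6 and pandas 2.3.3 under Python 3.11.15 and were tested on simulated data.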

Additional observations from a re-analysis of the deposited data

How the results depend on the processing

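No paired analysis was possible because each group has 1 array. Of the 155 values recomputed under the alternatives, no difference or median moved by 0.21 or more. That is the pooled SD of the array difference among features of a gene. Of the counts of members, 1 changed. At a threshold of 0.3 in place of 0.5, 1 member past the filter was lower, SLC25A15. Lower by that much were 24.3% of genes past the filter. Some of the 155 could not move, because each member has 1 feature and none lies on chromosome 10. The ARHGAP4 values are counted more than once among them. SLC25A15 lay between -0.27 and -0.37 and SLC25A2 between -0.22 and -0.32 over the deposited values, quantile normalization, centring and removal of the level trend. With 1 feature each, their values under the brightest feature are the deposited ones by construction. The median of the 4 members lay between -0.12 and -0.22, and that of the 3 past the filter between -0.22, with no filter, and 0.01, after removal of the level trend. The ARHGAP4 difference lay between 2.19 and 2.29. Of 21 named genes, MTCH1 and MTCH2 changed sign. So did the medians of the outer membrane members (up to 0.05), the import genes (up to 0.03) and the partner enzymes (over all measured genes, 0.02 after centring). These scalings moved the median of genes past the filter from -0.10 to between -0.02 and 0. Leaving out chromosome 10, which holds no member, moved the solute transporter median to -0.19 and the partner enzyme median to -0.15; for these lists that setting was chosen after seeing the data. Without replicates, and with each member resting on 1 feature, differences of this size cannot be set against variation between cultures.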
